A study of Mus musculus with 5 samples.

Results

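The nuclear genes of mitochondrial oxidative phosphorylation were compared between mouse embryos without Ptf1a and embryos with 1 null copy of it, in the dorsal pancreatic bud at E10.5. Members were the genes on the array whose symbol starts with the name of a subunit family of complexes I to V (Ndufa, Ndufb, Ndufc, Ndufs, Ndufv, Sdha to Sdhd, Uqcr, Cox4 to Cox8 and Atp5), with Cycs and Cyc1. A gene was represented by the probe set, among those annotated to 1 gene symbol, with the highest mean log2 signal over the 5 arrays. The rule found 96 genes, with 190 probe sets, of 18193 named genes and 45037 tested probe sets. It used no difference between genotypes. Read by its letters, the rule also took in 12 assembly factors, Ndufaf1 to Ndufaf8 and Sdhaf1 to Sdhaf4, which build the complexes and are not part of them. The other 84 genes were subunits or cytochrome c, with 34 counted to complex I, 4 to complex II, 9 to complex III, 19 to complex IV and 17 to complex V. Ndufa4, named for complex I, was counted with complex IV, where it is now placed, as were its paralog Ndufa4l2 and the supercomplex factor Cox7a2l. The annotation used here gave no single-symbol probe set for Ndufs6, Ndufa11 or Cox7b, and the subunits encoded in mitochondrial DNA were not analysed here.

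Ptf1a encodes a basic helix-loop-helix transcription factor required for pancreas formation. Heterozygous adults were mated, so the 2 control arrays held Ptf1a heterozygote buds and not wild-type buds, and the 3 other arrays held Ptf1a null buds. All embryos were C57BL/6J, and mesenchyme had been removed from the buds by hand dissection. Each array measured a pool of 3 buds whose RNA was copied from an oligo(dT) primer and amplified linearly 2 times, on Affymetrix Mouse Genome arrays of 1 design.

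Oxidative phosphorylation passes electrons from NADH and succinate through complexes I to IV to oxygen and uses the proton gradient that results to make ATP in complex V. Complex I takes electrons from NADH, complex II from succinate, complex III passes them through cytochrome c, and complex IV hands them to oxygen. Most subunits are encoded in the nucleus and are made in nearly all cells, while complex IV also has isoforms restricted to heart, skeletal muscle, lung or testis. The transcription factors NRF1, GABP of the ETS family and YY1 are known to bind promoters of many of these genes.

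Signals below are log2 of the deposited intensity after quantile normalisation, and a change is the mean of the null arrays minus that of the heterozygote arrays. Differences were tested with limma with a prior variance that follows signal, called the trended fit, and with a single prior variance, called the untrended fit. P-values were adjusted by the Benjamini-Hochberg method over all 45037 probe sets and called under 0.05. They measure the spread between these pools, since the labels name no litters. With 2 arrays against 3 the smallest p that an exact permutation test can give is 0.1. Background was taken, per array, as the 95th percentile of 27 bacterial control probe sets, and lay between 3.03 and 3.29. Ptf1a itself had signals of 7.10 and 7.33 in heterozygotes and 5.21, 6.07 and 5.00 in nulls, so the groups did not overlap in the labelled direction, with an adjusted p of 0.457 in limma's trended fit. All 12 bud epithelium markers named on the array were above background on every array. Of these 4 were higher and 8 lower in nulls, with a median change of -0.18. Their summed linear signal was 4464 and 5387 in heterozygotes against 6297, 6590 and 5104 in nulls. Of 20 mesenchyme markers 18 were higher in nulls, with a median change of 0.61 and a summed linear signal of 2366 and 1800 in heterozygotes against 2652, 2260 and 2818 in nulls. Of 12 erythroid markers 11 were lower in nulls, with a median change of -1.05 and a summed signal of 9595 and 12051 against 8897, 8274 and 7984. The part of these cells in the differences below was not tested.

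No oxidative phosphorylation gene passed the adjusted threshold between null and heterozygote buds, in a design in which Ptf1a itself did not pass it. In the trended fit 0 of 96 members were called, beside 8 of all probe sets (0.0178%), and in the untrended fit 0 members were called beside 0 of all probe sets (0%). The lowest adjusted p among members was 0.976 in the trended and 0.363 in the untrended fit, in both cases shared or held by Cox7a1, the muscle isoform of a complex IV subunit. At an unadjusted p under 0.05 the trended fit gave 3 members, Cox7a1, Atp5md and Ndufaf2, all lower in nulls, beside 4.93% of all probe sets. The untrended fit gave 2 members, Cox7a1 and Cox4i2, beside 5.52% of all probe sets. In bulk samples such as these, fewer cells of a type and less RNA per cell cannot be told apart.

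Most subunit genes had small changes between the genotypes on the probe set chosen for them. Of the 84 subunits and cytochrome c, 62 had a change smaller than 0.25 in size and 74 a change smaller than 0.5. Only 4, Cox7a1, Cox4i2, Cox7b2 and Cox8b, exceeded 1, and each of these was below background on at least 3 of the 5 arrays. Of the 77 subunits above background on all arrays, 73 lay within 0.5. Every null array lay above both heterozygotes for 4 members, beside 9.9% of all probe sets and 9.63% of those above background on all arrays. Every null array lay below both for 7 members, beside 10.1% and 9.95%. For the subunits and cytochrome c alone these counts were 2 and 5, together 8.33% of 84, against 20.0% of all probe sets in both directions and 19.6% of those above background on all arrays.

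The members' median change was -0.052, with 38 higher and 58 lower in nulls, against -0.0099 over all probe sets. Complex I had a median of -0.079 with 11 higher and 23 lower, complex III -0.033 with 3 and 6, complex IV -0.053 with 8 and 11, and complex V -0.064 with 6 and 11. Complex II, with 4 genes, had 0.11 with 3 higher and 1 lower, and the assembly factors 0.11 with 7 higher and 5 lower. This split depended on how arrays were scaled. Median centring gave 22 members higher and 74 lower and a median change of -0.21, and deposited values with no normalisation gave 18 and 78 and a median of -0.26. These scalings also moved the median over all probe sets, to -0.073 and -0.12, and relative to it the members stood at -0.14 in both, against -0.042 after quantile normalisation. Leaving out the first heterozygote turned the split to 63 higher and 33 lower, with a median of 0.094, and leaving out the second gave 25 and 71, with a median of -0.20.

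**Figure D1:**
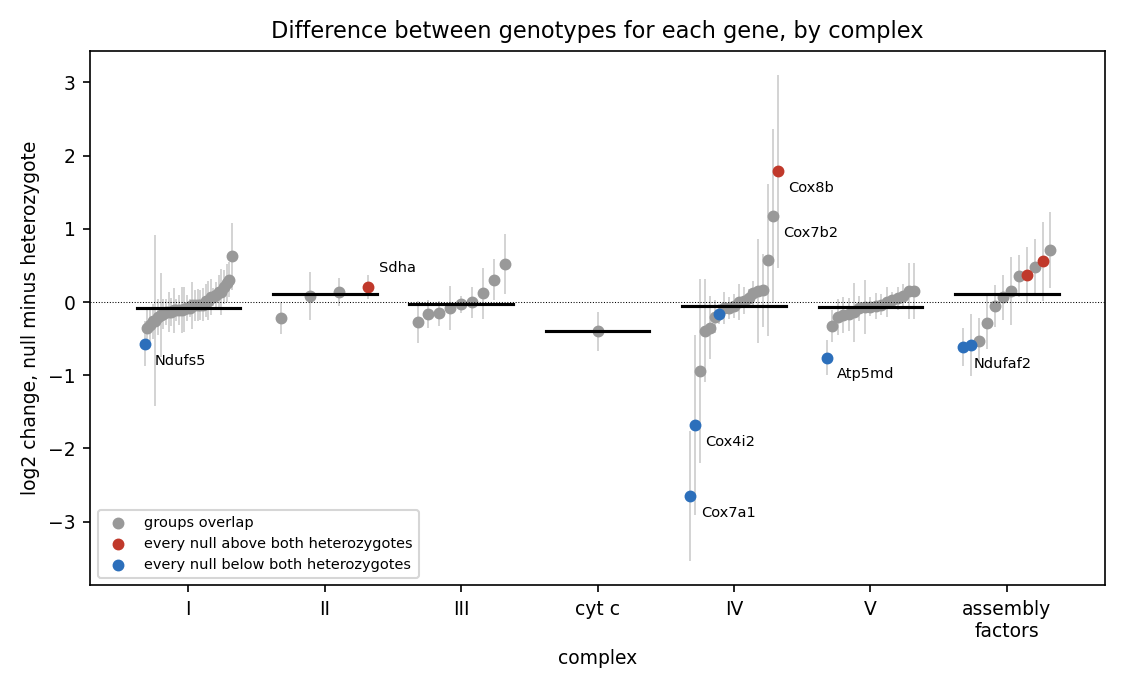
Log2 change between genotypes (null minus heterozygote, y axis) of each of the 96 genes, ordered within each complex (x axis), with bars of 1 standard error from limma's trended fit and a black line at the median of each group. Colours mark the 4 genes with every null array above both heterozygotes and the 7 with every null array below; changes over 1 in size appear only among complex IV isoforms.

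The first heterozygote array stood apart from the other 4 for these genes. The members' median deviation from their means over the 5 arrays was 0.19 on heterozygote 1 and -0.11 on heterozygote 2, and -0.044, -0.022 and 0.011 on the nulls. After quantile normalisation the 2 heterozygotes thus bracketed all 3 null arrays, but this order depended on the scaling. In the deposited values with no normalisation the members' median log2 signal was 9.11 and 8.38 in heterozygotes and 8.66, 8.01 and 8.65 in nulls. There null 2 was lowest, as it also was for the median of all probe sets. Heterozygote 1 had the highest signal of the 5 arrays for 45 of the 84 subunits (53.6%), against 20.5% of all probe sets above background on all arrays. Its signal exceeded that of heterozygote 2 for 66 of them (78.6%), against 49.8% of those probe sets, with a median difference of 0.30 between the pair. The difference was present in complex I (0.24 and -0.15 on the heterozygotes), complex III (0.11 and -0.12), complex IV (0.26 and -0.17) and complex V (0.17 and -0.031). Complex II did not show it, at -0.089 and -0.073.

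The proteins of the mitochondrial ribosome, which translates the subunits encoded in mitochondrial DNA, differed between the heterozygotes in the same way, with median deviations of 0.31 and -0.13 over 76 genes. For 46 cytosolic ribosomal proteins they were 0.16 and -0.10. For 17 TCA cycle enzymes they were -0.065 and 0.11, so the order of the heterozygotes was turned. Mitochondrial carriers and membrane proteins had 0.095 and 0.037. The difference of 3' from 5' probe sets of Gapdh, a sign of RNA length, was 1.69 on heterozygote 1, 1.496 on heterozygote 2 and 1.38, 1.45 and 1.45 on the nulls, on the log2 scale. The same difference for actin was lowest on heterozygote 1, at 0.55, and lay between 0.59 and 0.81 elsewhere. The part of RNA length in the members' values was not tested. Pearson correlations between arrays over the 96 members, which share the arrays' processing, ran from 0.960 to 0.985, with the highest between heterozygote 1 and null 3.

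**Figure D2:**
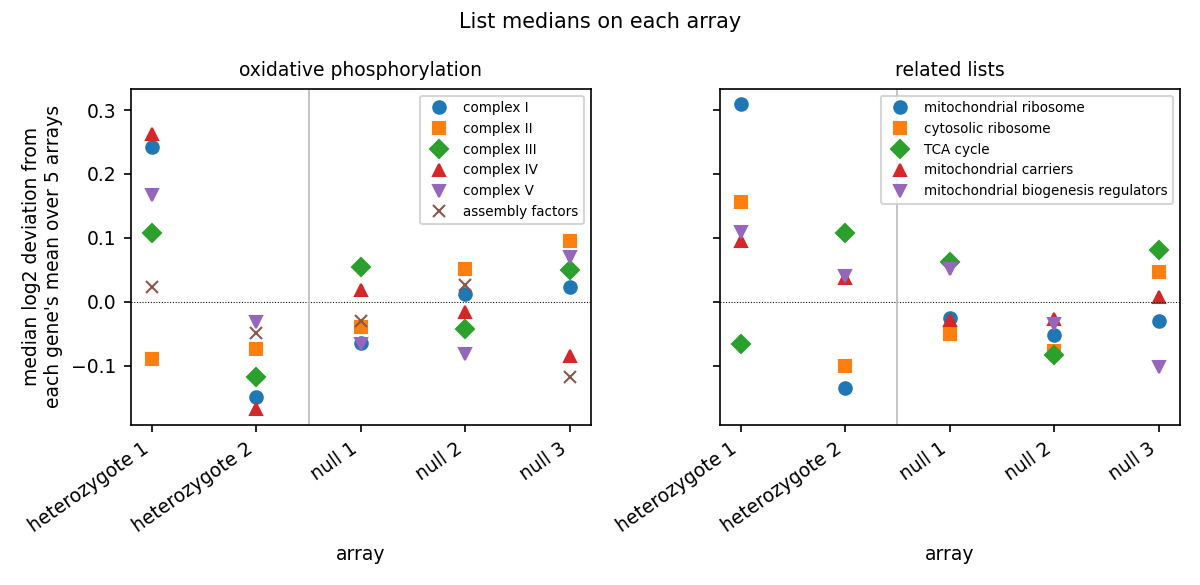
Median deviation of a list's genes from their own means over the 5 arrays (log2, y axis) on each array (x axis), for the complexes and assembly factors (left) and related lists (right), with heterozygotes left of the vertical line. After quantile normalisation, complexes I, III and IV are highest on heterozygote 1 and lowest on heterozygote 2, with the null arrays between them.

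Promoter sequences were available from RefSeq for 79 of the 96 members, in 84 windows running from 250 bases before to 50 bases after a gene's start on GRCm38.p6. They are shown for 4 members the comparison turns on: Sdha and Cox6a1, whose groups did not overlap at high signal, Atp5md, with the lowest unadjusted p in the trended fit, and Cox7a1, with the lowest adjusted p in the untrended fit. Each is written 5' to 3' along the gene's strand, and capitals mark matches on either strand to the NRF1 letters GCGCANGCG, the ETS letters CCGGAAG or the YY1 letters AANATGGCG, with overlapping matches joined.
Sdha, chr13:74350191-74350490, minus strand: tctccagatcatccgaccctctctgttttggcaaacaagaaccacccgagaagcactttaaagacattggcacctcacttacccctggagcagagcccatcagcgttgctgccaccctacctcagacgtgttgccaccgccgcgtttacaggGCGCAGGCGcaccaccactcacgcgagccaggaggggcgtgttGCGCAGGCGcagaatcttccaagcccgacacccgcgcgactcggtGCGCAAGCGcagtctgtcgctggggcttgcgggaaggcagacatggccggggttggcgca
Cox6a1, chr5:115348909-115349208, minus strand: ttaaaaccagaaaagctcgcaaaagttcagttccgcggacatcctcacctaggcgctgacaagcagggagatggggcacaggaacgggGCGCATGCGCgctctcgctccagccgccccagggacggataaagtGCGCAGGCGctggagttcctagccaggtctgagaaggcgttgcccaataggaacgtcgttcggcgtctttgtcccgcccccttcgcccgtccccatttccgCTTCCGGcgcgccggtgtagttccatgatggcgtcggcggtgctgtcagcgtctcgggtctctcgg
Atp5md, chr19:47090598-47090897, minus strand: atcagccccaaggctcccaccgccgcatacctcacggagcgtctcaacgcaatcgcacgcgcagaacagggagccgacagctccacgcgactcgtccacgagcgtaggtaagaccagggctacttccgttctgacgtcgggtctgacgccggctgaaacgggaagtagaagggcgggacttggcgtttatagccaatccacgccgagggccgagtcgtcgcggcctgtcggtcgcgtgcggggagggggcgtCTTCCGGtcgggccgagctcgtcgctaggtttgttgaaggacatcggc
Cox7a1, chr7:30183921-30184220, plus strand: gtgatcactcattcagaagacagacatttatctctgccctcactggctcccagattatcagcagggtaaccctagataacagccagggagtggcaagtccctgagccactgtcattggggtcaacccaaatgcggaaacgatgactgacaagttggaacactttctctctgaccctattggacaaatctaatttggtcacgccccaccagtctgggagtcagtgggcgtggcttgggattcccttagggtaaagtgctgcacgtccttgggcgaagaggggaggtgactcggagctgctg
The Sdha window held several NRF1 matches, Cox6a1 held NRF1 and ETS matches, Atp5md held an ETS match and Cox7a1 held none of the 3 motifs.

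NRF1 letters were found in 24 of the 84 member windows (28.6%), against 8.58% of the 21263 windows of protein-coding genes and 6.25% of all 32851 windows. ETS letters were in 26.2% against 11.6% of protein-coding windows, and YY1 letters in 13.1% against 3.12%. Other elements had shares near those of protein-coding windows: 48.8% against 46.2% for the SP-family letters GGGCGG, 41.7% against 38.2% for CCAAT, 11.9% against 12.6% for TATAAA and 67.9% against 69.0% for the E-box CANNTG, the class of site that Ptf1a's family binds. The median GC content was 59.0% in member windows and 56.3% in protein-coding ones, and the median number of CpG pairs was 20 against 13, so the base composition differed as well. Within each promoter class the changes between genotypes went both ways, and no difference between classes was tested. The median change was -0.050 for the 23 genes with NRF1 letters (range -0.57 to 0.71), -0.076 for the 22 with ETS letters (-0.76 to 0.38), -0.036 for the 7 with both, and -0.049 for the 36 with a window holding none of the 3 (-2.65 to 1.78). A match is a string of letters and not a measured binding site.

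**Figure D3:**
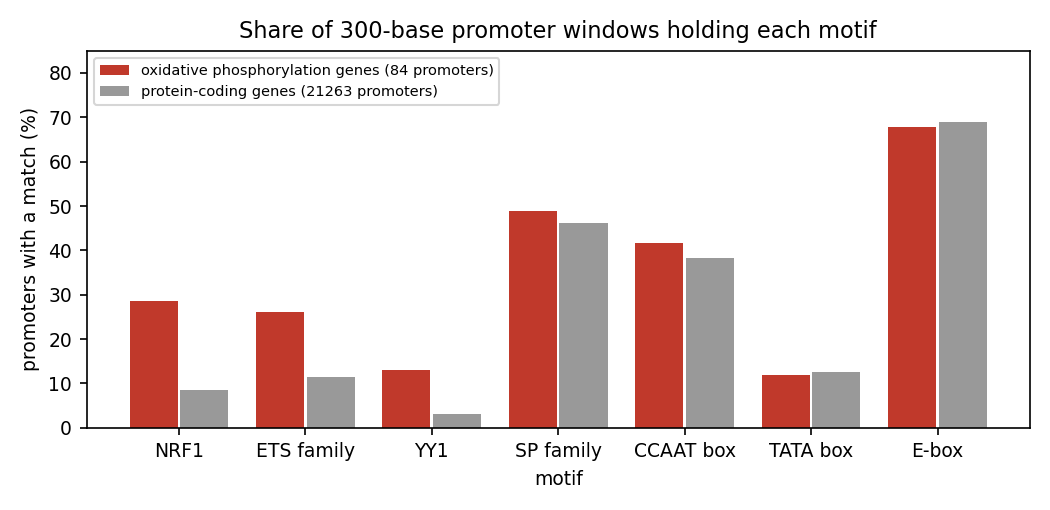
Share of 300-base promoter windows (percent, y axis) that hold each motif on either strand (x axis), for 84 windows of oxidative phosphorylation genes (red) and 21263 windows of protein-coding genes (grey). The NRF1, ETS and YY1 bars of the oxidative phosphorylation genes are taller than the grey ones (28.6% against 8.58% for NRF1), and the other 4 pairs are close to each other.

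Complex I was represented by 34 genes, of which 33 were above background on all arrays and 32 had a change smaller than 0.5 in size. Ndufv1, the flavin-bearing subunit that accepts electrons from NADH, had signals of 10.53 and 10.001 in heterozygotes and 10.31, 10.48 and 10.29 in nulls, all nulls lying between the heterozygotes. Its change was 0.093 ± 0.18 (SE). Ndufs1, the largest subunit and an iron-sulfur protein, had 9.17 and 9.82 against 9.66, 9.36 and 9.35, again with the nulls inside the heterozygote range, and a change of -0.041 ± 0.22 (SE). The 7 genes of the NADH-oxidising module had a median change of -0.041, with 2 higher and 5 lower.

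The module that leads to ubiquinone also had 7 genes, 2 higher and 5 lower, with a median of -0.13. Ndufs7, a core subunit on this path, had signals of 8.43 and 7.72 against 8.33, 8.26 and 8.41, with heterozygote 2 the lowest array and a change of 0.25 ± 0.26 (SE). Its other probe set, also above background on all arrays, had a change of -0.22 ± 0.28 (SE). Ndufa5, an accessory subunit near the ubiquinone site, had 10.10 and 9.54 against 9.26, 9.57 and 9.70, with only heterozygote 1 outside the range of the others, and a change of -0.32 ± 0.21 (SE). The other Ndufa5 probe set, above background on all arrays, had a change of 0.13 ± 0.28 (SE). Ndufs8, a core iron-sulfur subunit, had 8.99 and 8.43 against 8.43, 8.34 and 8.56, with heterozygote 1 again highest, and a change of -0.26 ± 0.24 (SE).

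The 19 accessory subunits of the membrane arm, which pumps protons, had a median change of -0.10, with 7 higher and 12 lower. Ndufs5 was the complex I subunit with the lowest p. Its signals were 7.91 and 7.74 in heterozygotes and 7.38, 6.72 and 7.65 in nulls, so every null lay below both heterozygotes, with null 3 close to heterozygote 2. The change was -0.57 ± 0.31 (SE), with a limma adjusted p of 0.976. Ndufa3 lay at the other end of the complex, with 7.12 and 5.23 against 6.64, 6.78 and 6.97. Heterozygote 1 was its highest and heterozygote 2 its lowest array, the change was 0.62 ± 0.46 (SE), and it was -0.32 without heterozygote 2.

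Complex II, which is also an enzyme of the TCA cycle, was above background on every array for all 4 genes. Sdha, the flavoprotein that oxidises succinate, had signals of 10.03 and 10.004 in heterozygotes and 10.15, 10.18 and 10.34 in nulls. All nulls lay above both heterozygotes, by 1.15-fold in the group means, and the change was 0.21 ± 0.16 (SE) with a limma adjusted p of 0.977. With no normalisation the change was -0.025, so its direction depended on the scaling. Its other probe sets went the other way. One had 5.37 and 5.28 against 4.35, 4.18 and 3.66, a change of -1.26 ± 0.52 (SE) with all nulls below both heterozygotes, and the next brightest of the gene had a change of -0.27.

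Sdhb, the iron-sulfur subunit, had 8.97 and 8.62 against 8.58, 8.50 and 8.65, with heterozygote 1 above the others and a change of -0.22 ± 0.22 (SE). Sdhc, an anchor in the membrane, had 9.14 and 9.11 against 9.08, 9.27 and 9.43, with overlapping groups and a change of 0.14 ± 0.20 (SE). For Sdhd, the other anchor, the change was 0.085. With Sdha's probe sets averaged, as for every gene, the median of complex II was -0.056 and not 0.11.

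All 9 genes of complex III were above background on every array, and in none were the genotypes separated. Cyc1, cytochrome c1, had signals of 9.43 and 9.16 in heterozygotes and 9.35, 9.03 and 9.50 in nulls, with heterozygotes and nulls interleaved and group means of 9.30 ± 0.19 (SD, n = 2) and 9.29 ± 0.24 (SD, n = 3). Uqcrfs1, the Rieske iron-sulfur protein, had 7.52 and 7.65 against 8.002, 8.20 and 7.47, with nulls 1 and 2 highest and null 3 lowest, and a change of 0.30 ± 0.28 (SE). The accessory subunit Uqcrq had 5.80 and 5.03 against 5.74, 5.97 and 6.10, with heterozygote 2 the low array and a change of 0.52 ± 0.41 (SE).

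Uqcr11, another accessory subunit, had 8.75 and 7.84 against 7.79, 8.09 and 8.18. The nulls surrounded heterozygote 2 and lay below heterozygote 1, and the change of -0.27 became 0.18 without heterozygote 1. Cycs, the cytochrome c that carries electrons onward to complex IV, had the same form, with 10.13 and 9.16 against 9.09, 9.08 and 9.57. Only heterozygote 1 stood out, and the change of -0.40 ± 0.27 (SE) was 0.090 without that array.

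In complex IV the chosen probe sets of subunits found in most tissues had changes under 0.5 in size, and changes over 1 lay in isoforms near background. Cox4i1, the common form of subunit 4, had signals of 11.09 and 10.78 in heterozygotes and 10.92, 10.73 and 10.91 in nulls, with overlapping groups and a change of -0.079 ± 0.15 (SE). Cox5a had 9.11 and 8.68 against 8.73, 8.88 and 8.83, with all nulls inside the heterozygote range and a change of -0.085 ± 0.22 (SE). Cox7a2, the isoform of subunit 7a in most tissues, had 11.02 and 10.56 against 10.80, 10.73 and 10.68, also inside that range, with a change of -0.053 ± 0.16 (SE). Cox7a2l, the related factor that joins complexes III and IV, had a change of 0.019 ± 0.18 (SE).

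Cox6a1, the isoform of subunit 6a in most tissues, had 11.66 and 11.44 against 11.43, 11.43 and 11.29. Every null lay below both heterozygotes, yet nulls 1 and 2 were almost level with heterozygote 2, and the change was -0.16 ± 0.13 (SE) with a limma adjusted p of 0.977. The other Cox6a1 probe set, also above background on all arrays, had 9.08 and 8.70 against 8.41, 8.28 and 8.46, with all nulls lower by a wider gap. Its change was -0.51 ± 0.22 (SE), with an unadjusted p of 0.0396 and an adjusted p of 0.976 in limma's trended fit. Ndufa4 had 5.90 and 6.95 against 6.64, 5.47 and 6.13, with the groups interleaved and a change of -0.35 ± 0.44 (SE).

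Cox7a1, the isoform of subunit 7a in heart and skeletal muscle, had the largest difference of any member. Its signals were 4.23 and 4.84 in heterozygotes and 1.87, 1.68 and 2.11 in nulls. The heterozygotes exceeded background and the 3 nulls lay below it. The gene was thus at least 2.70-fold lower in nulls, with the nulls set at their arrays' background levels. The fitted change was -2.65 ± 0.89 (SE) in the trended fit, with an adjusted p of 0.976, and the untrended limma fit gave an adjusted p of 0.363. Over the alternatives the change ran from -2.95 to -0.999 and the adjusted p from 0.363 to 1.00, and no alternative called it. The value of -0.999 came with an offset of 16 added to the intensities.

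Markers of heart and skeletal muscle, tissues in which Cox7a1 is abundant, went both ways. Of 12 such markers only Actc1 was above background on every array, 7 were higher and 5 lower in nulls, and their summed linear signal was 178 and 132 in heterozygotes and 149, 80.9 and 195 in nulls. Tnni1, a troponin of slow muscle and embryonic heart, had 4.29 and 3.30 against 0.44, 1.67 and 1.16, and Tnnt2, the cardiac troponin T, 3.53 and 3.86 against -0.23, 1.73 and 1.95. For both the nulls were below background and the heterozygotes above it, as for Cox7a1. Myh7, a myosin heavy chain of heart and slow muscle, was the opposite, with 2.04 and 1.17 against 4.89, 4.08 and 5.07. The part of muscle cells in the Cox7a1 difference was not tested.

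The remaining restricted isoforms were mostly at or below background. Cox6b2 and Cox8c exceeded it on all arrays, with overlapping groups and changes of -0.39 ± 0.70 and 0.15 ± 0.71 (SE). Cox4i2, a form of subunit 4 best known from lung, had 2.24 and 3.49 against 1.05, 1.95 and 0.55, with all nulls lower but only heterozygote 2 above background, and a fitted change of -1.68 ± 1.23 (SE). Cox6a2, the muscle form of subunit 6a, had 3.72 and 1.38 against 2.37, 2.78 and 4.21, with heterozygote 2 lowest and null 3 highest, and was above background on 2 arrays. Cox8b, a muscle form of subunit 8, was above background on null 1 alone. Ndufa4l2, a paralog of Ndufa4 known to be induced by low oxygen, had 2.11 and 2.27 against 0.35, 2.16 and 1.23. It and Cox7b2, a form known from testis, were above background on no array, so no fold is given for them.

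**Figure D4:**
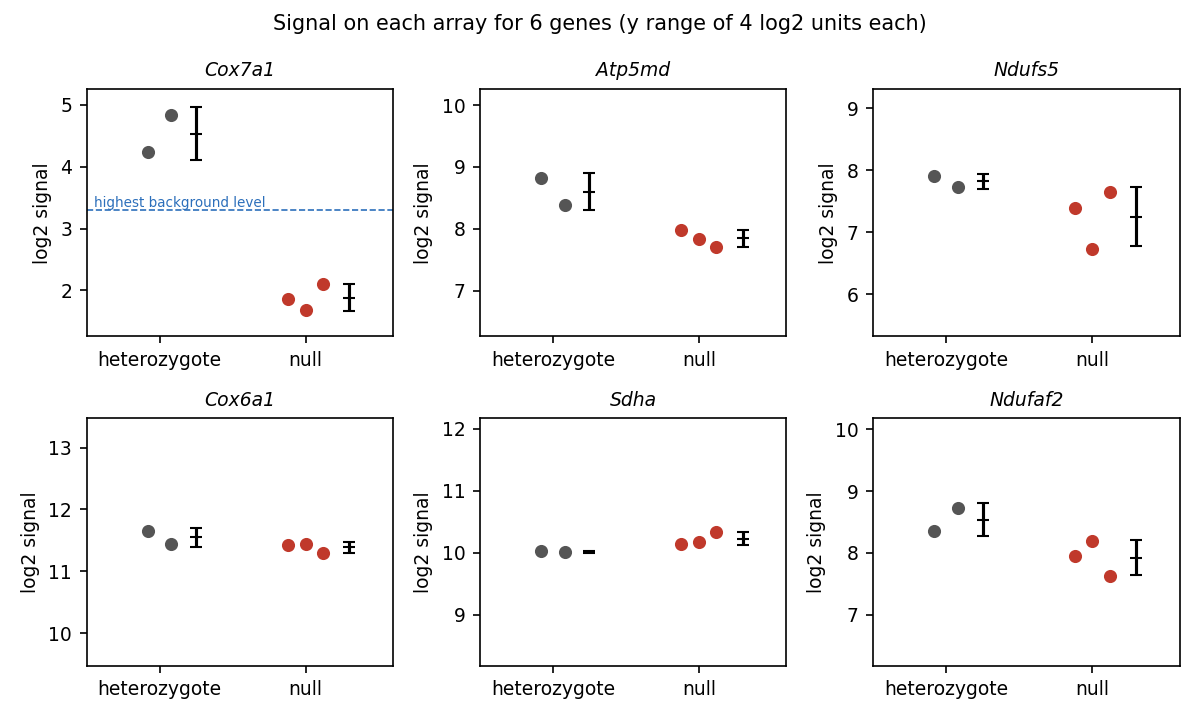
Log2 signal (y axis, 4 log2 units in each panel) on each heterozygote (grey) and null (red) array for 6 genes whose groups did not overlap, with the mean and SD of each group in black beside the points. In the Cox7a1 panel the dashed line is the highest background level of the 5 arrays, with both heterozygotes above it and the 3 nulls below, while in the Cox6a1 and Sdha panels the groups almost touch.

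All 17 genes of complex V, the ATP synthase, were above background on every array, and 15 had a change under 0.25 in size. Atp5a1, the alpha subunit of the catalytic head, had signals of 11.87 and 11.92 in heterozygotes and 11.90, 11.93 and 11.92 in nulls. The 5 arrays were nearly level, with a SD within genotypes of 0.026 and a change of 0.026 ± 0.11 (SE). Another Atp5a1 probe set, at lower signal but above background on all arrays, had 6.38 and 6.91 against 7.12, 7.13 and 7.22, all nulls higher, with a change of 0.52 ± 0.30 (SE) and a limma adjusted p of 0.976, and the third had a change of -0.049. Atp5b, the catalytic beta subunit, had 10.94 and 11.06 against 11.08, 10.83 and 11.25, with null 2 lowest and null 3 highest, and a change of 0.049 ± 0.15 (SE).

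The 3 genes for subunit c, the protein of the rotating ring, encode the same mature protein. Atp5g1 had 5.67 and 5.52 against 5.48, 5.67 and 5.21, Atp5g2 had 6.88 and 6.09 against 6.90, 6.08 and 6.93, and Atp5g3 had 10.14 and 10.18 against 10.05, 10.24 and 10.43. The genotypes overlapped for each, with changes of -0.14, 0.15 and 0.081. In Atp5g2 the low arrays were heterozygote 2 and null 2.

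Atp5md, a small membrane subunit also known as Usmg5 or DAPIT that stabilises synthase dimers, had the lowest unadjusted p of the members in the trended fit. Its signals were 8.82 and 8.39 in heterozygotes and 7.98, 7.84 and 7.70 in nulls. All nulls lay below both heterozygotes. The group means differed 1.69-fold and the change was -0.76 ± 0.25 (SE), with an unadjusted p of 0.00816 in the trended and 0.0904 in the untrended fit and an adjusted p of 0.976 in limma's trended fit and 0.959 in the untrended fit. It stayed between -0.97 and -0.54 over the alternatives, with adjusted p-values from 0.722 to 1.00. Atp5md had 1 probe set, so no second one bears on the value.

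Of the other small membrane subunits, Atp5k and Atp5mpl had changes of -0.33 and -0.18, and Atp5j2 and Atp5l of 0.0041 and 0.15. Atp5k had 9.36 and 8.92 against 8.73, 8.68 and 9.01, with null 3 above heterozygote 2 and a change of -0.33 ± 0.22 (SE). Atp5d, the delta subunit of the shaft, had 9.52 and 8.84 against 8.67, 8.97 and 9.28, with heterozygote 1 highest and a change of -0.21 ± 0.25 (SE). The synthase inhibitor, listed as Atpif1 and so outside the rule, had 12.11 and 11.96 against 12.08, 11.84 and 11.96, with overlapping groups and a change of -0.075.

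The 12 assembly factors had changes from -0.62 to 0.71, with 7 of 12 within 0.5. They were dimmer than the subunits, with a median signal percentile of 79.8 against 95.8, and the spread grows at lower signal. Ndufaf2, an assembly factor for complex I, had 8.35 and 8.73 in heterozygotes and 7.94, 8.19 and 7.63 in nulls. All nulls were below both heterozygotes, with a change of -0.62 ± 0.26 (SE), an unadjusted p of 0.031 and a limma adjusted p of 0.976. Ndufaf6, which acts early in the same pathway, had 5.52 and 6.10 against 4.97, 5.39 and 5.31, with all nulls lower. Ndufaf3, at 4.14 and 4.06 against 4.42, 4.40 and 5.14, and Sdhaf1, which helps to mature Sdhb, at 5.98 and 6.14 against 6.99, 6.16 and 6.16, had all nulls above both heterozygotes. For Sdhaf1 nulls 2 and 3 were almost level with heterozygote 2.

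The spread between arrays sets how small a difference these data could have shown. Among members in the top 5% of probe sets by mean signal, 47 genes, the median SD within genotypes was 0.18 on the log2 scale, and it was 0.20 over all probe sets of that band. Below the median signal, with 8 members, it was 1.01 for members and 1.24 for all probe sets. The median size of the members' change was 0.085 in the top band and 1.06 in the lowest, against 0.13 and 0.83 for all probe sets, and did not follow the SD at each step between them. The median SE of a subunit's change was 0.24, and the smallest was 0.11.

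**Figure D5:**
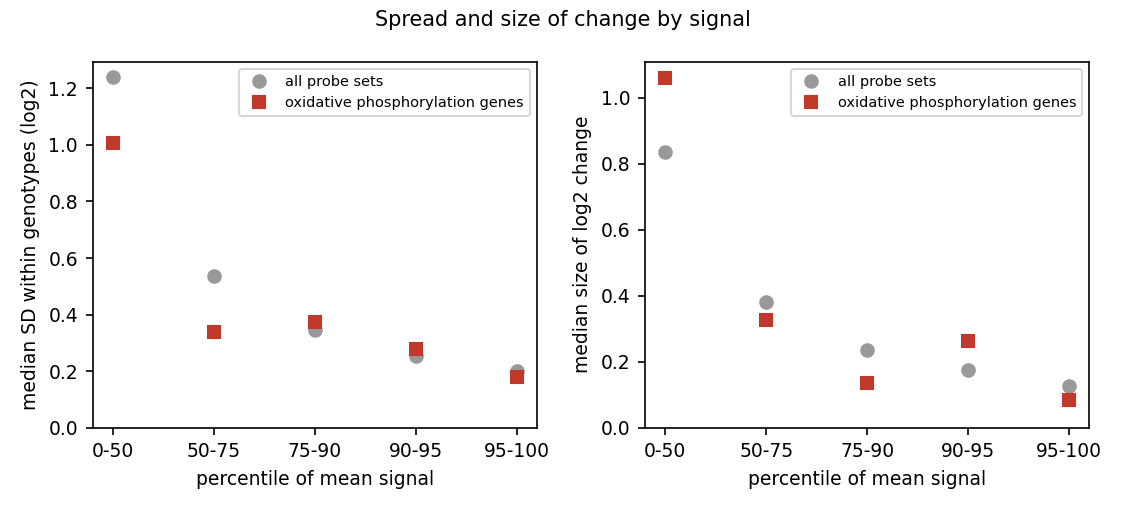
Median SD between arrays of the same genotype (left) and median size of the change between genotypes (right), both on the log2 scale, in bands of mean signal (percentile, x axis), for all probe sets (grey) and the oxidative phosphorylation genes (red). Both quantities are largest in the dimmest band, where 8 of the 96 genes lie, and smallest in the brightest, where 47 lie.

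Different probe sets of a gene often gave changes of opposite sign. Of 54 members with several probe sets, 26 had the same sign of change on all of them, and of 47 with at least 2 above background on all arrays, 27 did. In 2 genes, Sdha and Ndufs8, 1 probe set had all nulls higher and another all nulls lower. For Ndufs8 the dimmest of its 6 probe sets had 4.01 and 1.98 against 5.31, 5.25 and 5.47, a change of 2.35 ± 0.63 (SE) with a limma adjusted p of 0.817, while the other 5 had changes from -0.69 to -0.26. Over all 190 probe sets 68 were higher and 122 lower, with 7 and 17 separated. Together these were 12.6% of the 190, against 20.0% of all probe sets. Of the 96 chosen, 21 carry a suffix that marks probes shared with other transcripts, so signals of related copies cannot be separated there.

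No gene of the related lists, which cover other mitochondrial and ribosomal genes, was called in either limma fit. Of 34 further assembly factors outside the rule, 11 were higher and 23 lower, with a median change of -0.073. The lowest p-values there were those of Uqcc3, a complex III assembly factor, with 6.79 and 6.72 against 5.36, 5.76 and 5.90, and Sco1, a copper chaperone of complex IV, with 5.56 and 6.29 against 4.39, 4.63 and 4.67. In both, all nulls were below the heterozygotes, with changes of -1.08 ± 0.36 and -1.37 ± 0.46 (SE) and adjusted p-values of 0.976 in the trended and 0.838 and 0.761 in the untrended limma fit.

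Of 18 regulators of mitochondrial biogenesis 7 were higher and 11 lower, with a median of -0.11. Ppargc1a, the coactivator PGC-1 alpha, had a change of -0.38 ± 0.67 (SE), Nrf1 -0.23 ± 0.48, Gabpa 0.24 ± 0.29, Tfam, which packages and transcribes mitochondrial DNA, 0.058 ± 0.20, and Yy1 0.19 ± 0.16. Their groups overlapped in each case. Perm1, a muscle regulator, had all nulls lower, at 4.39 and 4.02 against 4.0, 2.94 and 0.41.

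Of 17 TCA cycle enzymes 8 were higher and 9 lower, with a median of -0.10. Cs, citrate synthase, had 9.73 and 9.43 against 9.06, 8.79 and 9.46, with null 3 inside the heterozygote range and a change of -0.47 ± 0.22 (SE), and Pcx, pyruvate carboxylase, had 5.57 and 5.02 against 6.23, 5.66 and 6.09, with all nulls higher. Of 23 carriers and membrane proteins 7 were higher and 16 lower, with Hspe1, the mitochondrial chaperonin partner, at 9.88 on both heterozygotes against 9.26, 9.48 and 9.55, and Chchd3, of the cristae junction complex, with a change of -0.45 ± 0.29 (SE). Of 14 oxidative stress genes 7 were higher and 7 lower. Glrx2, a mitochondrial glutaredoxin, had 8.16 and 8.04 against 7.16, 7.29 and 7.43, all nulls lower, with a change of -0.81 ± 0.26 (SE) and a limma adjusted p of 0.976, and Hmox1, haem oxygenase, had 3.50 and 0.40 against 4.13, 4.06 and 4.45, all nulls higher.

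The mitochondrial ribosome, with 76 genes, had 25 higher and 51 lower and a median of -0.11, and the cytosolic ribosome, with 46, had 14 and 32 and a median of -0.058. Mrpl11 of the mitochondrial ribosome, at 8.84 and 8.38 against 8.85, 9.28 and 9.02, had all nulls higher, and Mrpl55, at 5.64 and 5.20 against 4.95, 1.72 and 4.36, all nulls lower. Of the cytosolic ribosome, Rps27l had all nulls lower, with a change of -0.37 ± 0.22 (SE), and Rps16 was above background on no array.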

How the data were processed

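Affymetrix Mouse Genome arrays of 3 Ptf1a null and 2 Ptf1a heterozygote pools were used. The deposited values are a linear signal intensity per probe set. The submitters' processing notes name GCOS and RMA, with no version and no statement of what each did, and the background removal done earlier is not stated in those notes. Intensities were put on a log2 scale with no offset, quantile normalised, and fitted with limma 3.58.1 in R 4.3.3 (lmFit, eBayes with trended, robust priors, 2-sided), leaving out 64 control probe sets of 45101. An untrended prior, the scaling, an offset of 16, values raised to background, leaving out dim probe sets, averaging a gene's probe sets, the replicate number as a block and leaving out each array were tried. The fit was tested on simulated data. Signal was ranked across probe sets to choose a gene's probe set and to describe brightness, and not to compare amounts of RNA between genes. The number of arrays limits the precision.

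Names came from the platform annotation, whose older symbols are used (Atp5a1 for the gene now called Atp5f1a); all 190 probe sets' gene IDs matched the RefSeq gene table. Promoters came from RefSeq (GRCm38.p6). Genes named by rule were any member called, the 3 lowest p-values in each complex and subunits listed by role. The rules also took the 2 lowest p-values of each related list with 4 regulators, genes with opposed probe sets, and Ptf1a. Others were named after their values were seen, among them Cox7b2, Sdhd, Atp5mpl, Atp5j2, Atp5l, the assembly factors and the probe sets of several symbols. The members and lists were chosen with earlier results of these data known.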

Additional observations from a re-analysis of the deposited data

How the results depend on the processing

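No member was called under any of the settings tried, with a lowest adjusted p of 0.314 in limma when heterozygote 1 was left out. Same-numbered arrays had correlations of deviations from their group means of -0.017 and 0.0080. With 2 heterozygotes these deviations mirror each other, so differently numbered arrays gave -0.0080 and 0.017. Whether the array numbers pair the samples cannot be told from these values. With the replicate block, in which null 3 has no partner, 79 probe sets were called in place of 8, and 0 members. The untrended fit called 0, median centring 4, no normalisation 2 and values raised to background 69, and 0 to 11 were called with 1 array left out. The cause was not tested. Few arrays and signals near background limit what could be detected, and for the dim isoforms the size of a change depended on the offset and floor.

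Median centring gave 2 members with every null higher and 20 with every null lower, and no normalisation gave 1 and 9. Under median centring these were 2.08% and 20.8% of members, against 8.93% and 11.5% of all probe sets. With no normalisation they were 1.04% and 9.375% of members, against 7.505% and 10.9954% of all probe sets. The share of members with every null lower thus exceeded that of all probe sets under median centring but not with no normalisation. The median changes under median centring were -0.21 for all members, -0.22 for subunits and cytochrome c, -0.030 for complex II, -0.20 for III, -0.23 for IV and -0.23 for V. Under no normalisation they were -0.26 for all members, -0.26 for subunits, -0.26 for complex I, -0.075 for II, -0.25 for III, -0.28 for IV and -0.28 for V. Averaging all probe sets of a gene gave -0.056 for complex II and -0.14 for III.

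With 1 array left out, 7 to 33 members had every null higher and 10 to 51 every null lower. Fewer arrays separate more often: the shares over all probe sets were 26.2% higher and 26.9% lower without heterozygote 1, against 34.4% and 14.6% of members, 24.7% and 24.6% without heterozygote 2, against 10.4% and 53.1%, and 16.04% to 16.7% with a null left out, against 7.29% to 17.7%. The median change then ran from -0.20 to 0.094 for all members, -0.22 to 0.085 for subunits, -0.29 to 0.12 for complex I, -0.12 to 0.13 for III, -0.28 to 0.12 for IV and -0.20 to -0.0011 for V, with the ends mostly set by leaving out a heterozygote.

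Single genes with small changes also turned. Under median centring the changes were -0.096 for Ndufv1, -0.039 for Sdhc, -0.16 for Cox7a2l, -0.18 for Atp5a1, -0.15 for Atp5b and -0.090 for Atp5g3. Under no normalisation they were -0.14 for Ndufv1, -0.025 for Sdha, -0.083 for Sdhc, -0.21 for Cox7a2l, -0.22 for Atp5a1, -0.19 for Atp5b and -0.13 for Atp5g3. Raising values to background gave -0.021 for Cox6a2, and the replicate block gave 0.011 for Ndufs1, -0.049 for Atp5b and -0.012 for Atp5g3. Null 3 is alone in its block, so the block's changes are the same as those without null 3 and are not a separate estimate. Leaving out arrays gave ranges of -0.37 to 0.29 for Ndufs1, -0.17 to 0.36 for Ndufv1, -0.10 to 0.61 for Ndufs7, -0.54 to 0.014 for Ndufs8, -0.32 to 1.57 for Ndufa3, -0.14 to 0.13 for Cyc1, -0.73 to 0.18 for Uqcr11, -0.88 to 0.090 for Cycs, -0.23 to 0.075 for Cox4i1, -0.30 to 0.13 for Cox5a, -0.28 to 0.18 for Cox7a2, -0.086 to 0.12 for Cox7a2l, -0.60 to 1.74 for Cox6a2, -0.87 to 0.18 for Ndufa4, -0.0010 to 0.053 for Atp5a1, -0.049 to 0.16 for Atp5b, -0.55 to 0.13 for Atp5d, -0.25 to 0.55 for Atp5g2 and -0.012 to 0.18 for Atp5g3. Cox7a1, Atp5md, Ndufs5, Cox6a1, Cox4i2, Ndufa5, Sdhb, Atp5g1 and Atp5k, of the members followed, were lower in nulls under every setting that fitted them. Cox8b, Uqcrfs1 and Uqcrq were higher in nulls under every such setting. Ndufa4l2 was lower too, but it exceeded background on no array. With values raised to background, its change of -0.060 was only that between the background levels, the same as the median over all probe sets.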

Other observations

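On the array 10 probe sets named a member together with another gene or pseudogene and were left out of the counts. Of these, the one for Ndufs6 and its copy Ndufs6b, a complex I accessory subunit of the NADH-oxidising end, had signals of 8.95 and 8.65 in heterozygotes and 8.44, 8.43 and 8.50 in nulls. All nulls lay below both heterozygotes, with a change of -0.34 ± 0.22 (SE) and a limma adjusted p of 0.976. The brighter of the probe sets for Ndufa11 and Ndufa11b had 6.25 and 6.19 against 5.71, 6.17 and 6.04, also with all nulls lower. The lowest p of the 10 belonged to a probe set shared by Yjefn3 and Ndufa13, a membrane arm subunit, with 2.94 and 1.96 against 4.11, 4.24 and 4.27. There all nulls were higher, the heterozygotes were below background, and the change was 1.75 ± 0.73 (SE) with a limma adjusted p of 0.976. The probe set shared by Ndufs5 and its pseudogene had 8.04 and 7.69 against 7.61, 6.88 and 7.83, where the groups overlapped, with a change of -0.43 ± 0.31 (SE).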
